A study of Mus musculus with 8 samples.

Results

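SR proteins and heterogeneous nuclear ribonucleoproteins (hnRNPs) are the main families of RNA-binding proteins that decide which exons a pre-mRNA keeps. SR proteins carry an RNA recognition motif and a tail rich in arginine and serine (RS), bind exonic enhancers and recruit the spliceosome. HnRNPs coat nascent transcripts, often repress nearby splice sites, and several shuttle to the cytoplasm, where they act on the stability and translation of mRNAs, those of cytokines among them. Both families are known to control their own levels through poison exons, which send a transcript into nonsense-mediated decay (NMD). The genes described here are the protein-coding mouse genes whose symbol is Srsf followed by a number or starts with Hnrnp, and whose mean over all samples was at least 10 normalized counts, i.e., read counts divided by a size factor per sample. Of 32 genes that match these symbols, 30 reached this level, 10 SR genes (Srsf1 to Srsf7, Srsf9, Srsf10 and Srsf11) and 20 hnRNP genes, among 16309 genes tested and 55359 listed. The other two were Srsf12, with a mean of 1.38 normalized counts and at most 2 reads in a sample, and Srsf19, with a mean of 1.06 and at most 2 reads.

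Bone-marrow-derived macrophages (BMDMs) of wildtype C57BL/6 mice of both sexes, differentiated with M-CSF and GM-CSF (20 ng/mL each) for 7 days by the labels or 6 days by the methods text, were sequenced as total RNA in 4 groups of 2 samples. Ctrl were naïve macrophages (Mϕ), and LPS were naïve Mϕ that had received LPS at 100 ng/mL together with IFNγ at 100 U/mL over 6 h. Eff were efferocytic Mϕ, i.e., Mϕ co-cultured for 16 h with apoptotic NIH-3T3 CA fibroblasts, a line with an activatable caspase-8, at 5 apoptotic cells per Mϕ and with 10 nM of the activating dimerizer, and LPSEff were such Mϕ after washing and the same stimulation. CD45+ cells were isolated with magnetic beads before RNA extraction. Ctrl and LPS received no fibroblasts, so that ingestion, fibroblast RNA and co-culture differ together between efferocytic and naïve groups. The sources do not say whether samples 1 and 2 of a group came from separate animals or cultures, so that p-values measure the spread between these samples, which may be technical.

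Depth ranged from 3481288 to 12020918 reads per sample. Nos2, an enzyme induced by LPS/IFNγ, was at 45.7 and 31.8 normalized counts in Ctrl and at 37734 and 24545 in LPS, which matches the labels of these samples. All 8 macrophage markers on the list were detected, with a summed level between 87544 and 141156 normalized counts over the 4 groups. The summed level of 12 fibroblast markers was 169 to 382 in Ctrl, 798 to 857 in LPS, 2134 to 3905 in Eff and 5334 to 6480 in LPSEff, with no marker at 0. The summed level of 6 dendritic cell markers was higher with stimulation, going from between 4545 and 9683 normalized counts in Ctrl to between 10651 and 24097 in LPS, and from between 2682 and 6083 in Eff to between 8343 and 12936 in LPSEff. Neutrophil markers summed to 614 to 863 in Ctrl against 1412 to 1603 in LPS, and to 1025 to 1246 in Eff against 1534 to 2028 in LPSEff. Of the fibroblast, dendritic cell and neutrophil markers, Col5a1, Pdgfrb, Xcr1, Ccr7, S100a8 and Camp were called higher in LPS vs Ctrl. In LPSEff vs Eff, Pdgfrb, Ccr7 and Camp were. Lymphocyte markers summed to at most 22.0. The part of fibroblast RNA in any difference between efferocytic and naïve Mϕ was not tested. Nor was that of fibroblast, dendritic cell and neutrophil RNA in any difference after stimulation. Scaling bears on the directions after stimulation, since with equal sample totals in place of the authors' size factors the median log2 fold change of all tested genes moved from -0.01 to -0.40 in LPS vs Ctrl and from 0.01 to -0.44 in LPSEff vs Eff. In bulk RNA, fewer cells that express a gene and less RNA per cell cannot be told apart.

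Levels can be compared between genes only per length, here as normalized counts per kb of the canonical transcript. In Ctrl, the 30 genes spanned from 6.55 to 1770 per kb, with a median of 202 for SR genes and 196 for hnRNP genes. Hnrnpab, which encodes a protein that binds RNA and CArG-box DNA, had the highest level, with 1770 ± 15.4 per kb (SD, n = 2). Srsf2, the gene of the nuclear speckle protein SC35, was the highest SR gene, with 811 ± 99.0 per kb, followed among SR genes by Srsf9 with 438 ± 34.8 and Srsf1 with 345 ± 43.7. Both leaders also had the highest levels of their families in LPS, Eff and LPSEff. After Hnrnpab, the highest hnRNP levels belonged to Hnrnpl with 633 ± 97.7 per kb, Hnrnpa2b1 with 540 ± 26.6 and Hnrnph1 with 482 ± 101, which differed from the next in order by about their spread or less. At the lower end were Hnrnpr with 11.2 ± 0.0603 and Hnrnpa3 with 6.55 ± 0.0210 per kb. The canonical transcript of Hnrnpr is 21475 bases long, and a level per kb depends on this choice of transcript.

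Several of the low levels belonged to genes whose sequence has copies elsewhere in the genome. A read that aligns to several places is not counted by htseq-count in its default mode, so that the share of a transcript with an exact copy elsewhere bears on its level. Of 50-base windows of the canonical transcript, as long as the reads, 95.3% had another exact copy in the genome (GRCm39) for Hnrnpa1 and 88.4% for Hnrnpa3. The share was 56.4% for Hnrnph2, 49.4% for Srsf10, 43.9% for Srsf5, 36.8% for Hnrnpf, 36.1% for Srsf3, 27.2% for Hnrnpk, 23.3% for Hnrnpc and 13.3% for Hnrnph1. It was under 6% for the other 20 genes. Across the 30 genes, the Spearman correlation of the Ctrl level per kb with this share was -0.45, as a description over genes of the same libraries. The level of Hnrnpa1, a widely studied repressor of exon inclusion, at 56.8 ± 13.7 per kb is therefore not comparable with that of Hnrnpa2b1. Hnrnpm shares 14.7% of its exonic bases with Marchf2 on the same strand, and Hnrnpul2 shares 7.74% with other annotated genes.

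**Figure D1:**
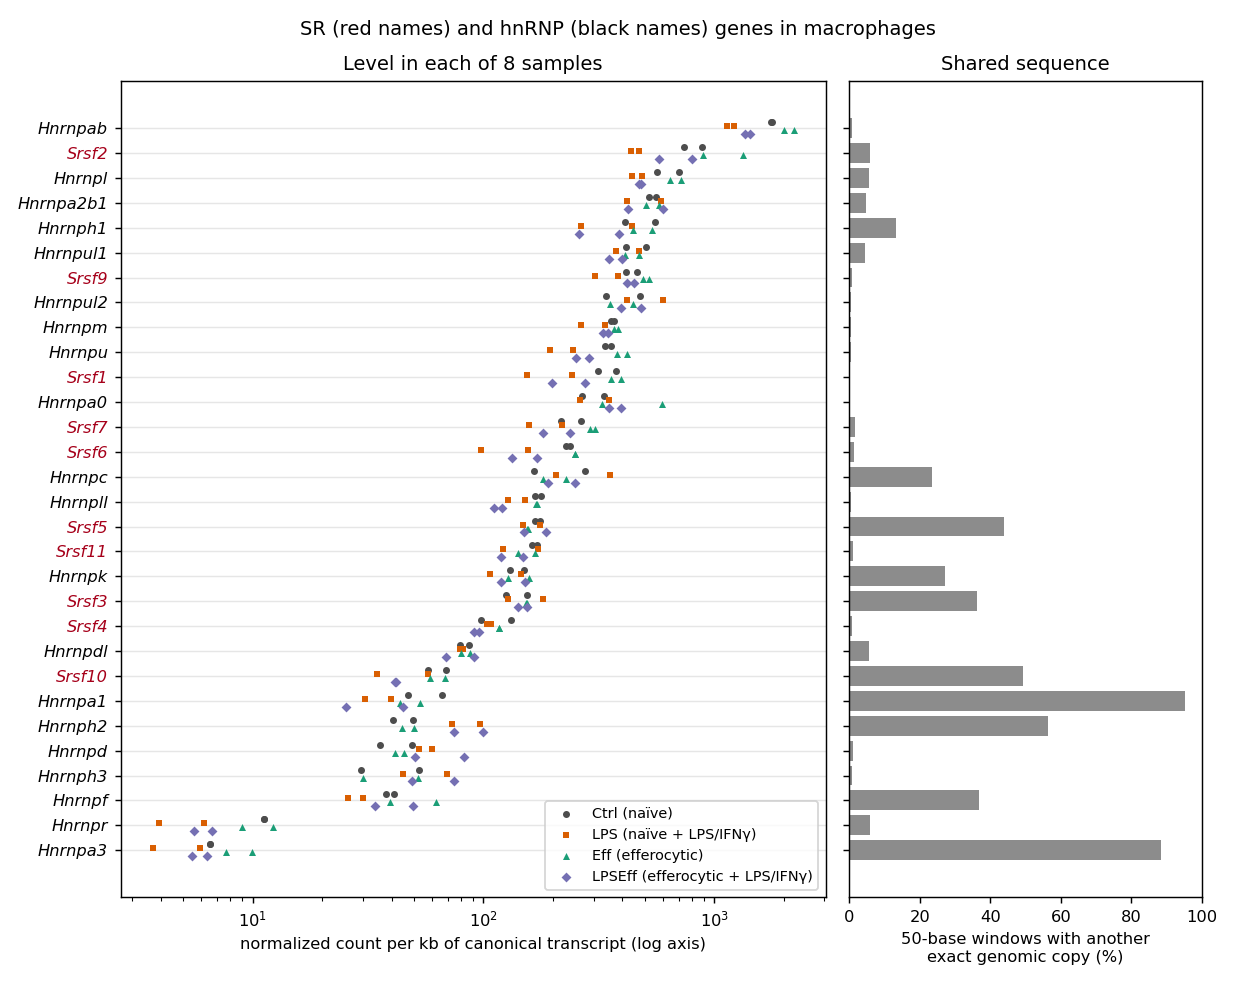
Left, level of the 30 SR and hnRNP genes in each of the 8 samples, as normalized counts per kb of canonical transcript on a log axis, ordered by the mean of Ctrl; colours and symbols mark the 4 groups. Right, percent of 50-base windows of the same transcript with another exact copy in the genome. Hnrnpab lies highest at 1770 per kb in Ctrl, and Hnrnpa1 and Hnrnpa3, with 95.3% and 88.4% of windows copied, lie near the bottom.

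The first question was how LPS/IFNγ stimulation changed these genes in naïve Mϕ. Srsf2, Srsf6, Hnrnpab, Hnrnpr and Hnrnpu fell and Hnrnph2 rose, by limma on log2(normalized count + 1) with all 8 samples in a single fit and a Benjamini-Hochberg adjusted p under 0.05 over all tested genes. These 5 of 30 members called lower (16.7%) stand beside 11.6% of all tested genes, and the 1 member called higher (3.33%) beside 12.4%. In this fit, the share of calls lower rested on 5 members and was somewhat above that of genes at large, and that of calls higher was below it. The former depends on the fit. By edgeR it was 13.3% beside 11.4%, and in a fit of the 2 groups alone 6.67% beside 7.66%. With equal totals or quantile normalization it lay further above, as given below. The share in this fit alone therefore does not set the members apart from genes at large. With the authors' size factors, Hnrnpr was the only member of 30 that differed by at least 2-fold, against 4402 of 16309 tested genes. Under 2-fold were 96.7% of members and 73.0% of all tested genes. With equal sample totals, 6 of 30 members differed by at least 2-fold, against 5203 of 16309 genes.

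For the 6 genes called in naïve Mϕ, the bases just before the transcription start are shown, since these are the stretches in which the common core promoter letters were searched. The sequences are those of RefSeq on GRCm38.p6, 80 bases each, 5′ to 3′ on the strand of the gene and ending at the base before the start. Capitals mark the GC box GGGCGG, bound by Sp1-like factors, or its reverse complement, and the TATA box TATAAA. The stretches lie at chr11:116853095-116853174 (minus strand) for Srsf2, chr2:162931428-162931507 (plus) for Srsf6, chr11:51606882-51606961 (minus) for Hnrnpab, chr4:136310862-136310941 (plus) for Hnrnpr, chr1:178337816-178337895 (minus) for Hnrnpu and chrX:134601099-134601178 (plus) for Hnrnph2.
Srsf2: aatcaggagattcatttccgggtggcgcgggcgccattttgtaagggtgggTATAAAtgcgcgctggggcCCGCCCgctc
Srsf6: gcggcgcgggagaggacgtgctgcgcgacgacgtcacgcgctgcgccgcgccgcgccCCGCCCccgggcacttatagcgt
Hnrnpab: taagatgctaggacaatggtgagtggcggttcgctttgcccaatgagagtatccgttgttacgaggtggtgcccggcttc
Hnrnpr: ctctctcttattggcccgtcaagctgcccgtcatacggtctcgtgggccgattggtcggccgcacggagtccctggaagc
Hnrnpu: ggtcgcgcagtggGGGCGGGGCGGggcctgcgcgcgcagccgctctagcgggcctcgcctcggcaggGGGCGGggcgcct
Hnrnph2: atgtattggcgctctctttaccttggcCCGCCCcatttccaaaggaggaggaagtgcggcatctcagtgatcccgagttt

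Within these 80 bases, Srsf2 is the only gene of the 6 with TATA letters, and Hnrnpab and the Hnrnpr stretch shown hold none of either motif. Further out, their windows hold GC box letters, 117 bases before the start for Hnrnpab and 186 for Hnrnpr. Hnrnpr has 2 annotated windows. The window not shown (chr4:136311348-136311647) holds GC box letters 38 bases before its start. Over the whole 250 bases before the start, on both strands and in any annotated window of a gene, GC box letters were present in 23 of the 28 members found in the table (82.1%) and in 62.5% of 10235 tested genes with a window. TATA letters were present in 3 members (10.7%; Srsf2, Srsf3 and Hnrnpm) and in 8.22% of tested genes, and the E-box CACGTG in 3 members (10.7%; Hnrnpa3, Hnrnpd and Hnrnpf) and 9.84% of tested genes. The CRE core TGACGTCA was in 0 members and in 2.97% of tested genes. The core letters GAAANNGAA of the interferon-stimulated response element (ISRE), the site read by interferon-activated factors, were found in 1 member, Hnrnph2 (3.57%), and in 7.84% of tested genes. This stretch lies at chrX:134600929-134600988 on GRCm38.p6 (plus strand), 250 to 191 bases before the start, with the ISRE letters on the opposite strand and their reverse complement in capitals here.
Hnrnph2 distal: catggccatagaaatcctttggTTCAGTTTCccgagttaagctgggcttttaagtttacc
A match of letters is a description of the window and not a bound site.

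Among the SR genes, Srsf6 (ENSMUSG00000016921; chr2:162773299-162780234 on GRCm39) and Srsf2 fell in naïve Mϕ. Srsf6 encodes an SR protein with a long RS tail. Its normalized counts were 1079.7 and 1131 in Ctrl against 463 and 739 in LPS, and 1184 and 1189 in Eff against 633 and 812 in LPSEff. Every stimulated sample lay below every unstimulated one, and the LPS samples differed from each other by more than the Ctrl samples did. The log2 fold change in LPS vs Ctrl was -0.92 ± 0.24 (SE; n = 2 per group; limma adjusted p = 0.029). In efferocytic Mϕ it was -0.73 ± 0.24 and missed the threshold by limma (adjusted p = 0.075) and edgeR (adjusted p = 0.052). By DESeq2 it was called lower there too (adjusted p = 0.041).

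Srsf2 (ENSMUSG00000034120; chr11:116740723-116744518) had 2194 and 1845 normalized counts in Ctrl against 1178 and 1089.6 in LPS, and 3322 and 2230.1 in Eff against 1999 and 1430.3 in LPSEff. Stimulated samples were below the unstimulated ones of the same context, but the higher LPSEff sample exceeded the lower Ctrl sample. The log2 fold change was -0.83 ± 0.25 in LPS vs Ctrl (limma adjusted p = 0.046) and -0.69 ± 0.25 in LPSEff vs Eff (adjusted p = 0.096). By edgeR the call in LPS vs Ctrl was lost (adjusted p = 0.072), and by DESeq2 it was kept (adjusted p = 0.038). Srsf1, the founding SR protein, had a change of nearly the same size in naïve Mϕ that just missed the threshold by limma. It passed by edgeR (adjusted p = 0.038) and DESeq2 (adjusted p = 0.022). Its values were 1704 and 2039.7 in Ctrl against 838 and 1313 in LPS, and 1935 and 2133 in Eff against 1076 and 1495 in LPSEff. Its log2 fold changes were -0.83 ± 0.26 (limma adjusted p = 0.053) and -0.68 ± 0.26 (adjusted p = 0.11), and in both contexts the groups did not overlap.

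The other 7 SR genes were not called in either context. Srsf10, which acts as a splicing repressor when it loses its phosphates, had log2 fold changes of -0.48 ± 0.27 in LPS vs Ctrl and -0.60 ± 0.27 in LPSEff vs Eff. Srsf7 had -0.37 ± 0.23 and -0.52 ± 0.23, and Srsf9, the nearest relative of Srsf1, had -0.36 ± 0.19 and -0.22 ± 0.19. Srsf4, Srsf5 and Srsf11 lay between -0.20 and -0.09 in LPS vs Ctrl. Srsf3, which with Srsf7 also links mRNAs to the export machinery, was the only SR gene above 0 in naïve Mϕ, with 0.14 ± 0.22, and it had -0.06 ± 0.22 in efferocytic Mϕ. Its normalized counts of 362 and 447 in Ctrl, and 371 and 526 in LPS, overlapped.

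Among the hnRNP genes, Hnrnpr (ENSMUSG00000066037; chr4:136038247-136086758) had the lowest log2 fold change of the members in LPS vs Ctrl. This order depends on the processing, since with quantile normalization it had -1.09 and 5 members lay lower, Srsf2 with -1.30 among them, and without LPS sample 1 it had -0.86 and Srsf2 -0.88. Its RNA-binding protein closely resembles that of Syncrip, hnRNP Q. It had 242 and 240.0 normalized counts in Ctrl against 84.1 and 132 in LPS, and 194 and 264 in Eff against 120.3 and 143 in LPSEff. Every stimulated sample was below every unstimulated one. The log2 fold change was -1.19 ± 0.28 in LPS vs Ctrl (limma adjusted p = 0.017), i.e., a level of 0.440 times that of Ctrl, and -0.78 ± 0.28 in LPSEff vs Eff (adjusted p = 0.088).

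Hnrnpu (ENSMUSG00000039630; chr1:178148673-178165362), which encodes the nuclear scaffold protein SAF-A, had 2717 and 2565 normalized counts in Ctrl against 1482 and 1864 in LPS, and 3189 and 2881 in Eff against 1916 and 2197 in LPSEff. The 4 stimulated samples were again below the 4 unstimulated ones. Its log2 fold changes were -0.67 ± 0.19 (limma adjusted p = 0.036) and -0.56 ± 0.19 (adjusted p = 0.074). The call in LPS vs Ctrl depends on single samples, as given below. With 1 sample left out, the log2 fold change there lay between -0.83 and -0.50. Hnrnpab (ENSMUSG00000020358; chr11:51487363-51510327) was the only member called lower in both contexts by limma. It had 3706 and 3660.1 normalized counts in Ctrl against 2531 and 2353 in LPS, and 4585 and 4180.0 in Eff against 2812 and 2979.9 in LPSEff. Both pairs were tight, and no stimulated sample reached the lowest unstimulated one. The log2 fold change was -0.59 ± 0.17 in LPS vs Ctrl (limma adjusted p = 0.036) and -0.60 ± 0.17 in LPSEff vs Eff (adjusted p = 0.040). Both calls were lost by edgeR (adjusted p = 0.051 and 0.056) and kept by DESeq2 (adjusted p = 0.038 and 0.031). That in LPS vs Ctrl was also lost with any 1 of the 8 samples left out, with log2 fold changes between -0.65 and -0.54. In LPSEff vs Eff, edgeR called Hnrnpll lower instead.

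Hnrnph2 (ENSMUSG00000045427; chrX:133501878-133507810), whose protein binds G-rich tracts, was the only member called higher, and it was so in both contexts. It had 126 and 103 normalized counts in Ctrl against 185 and 245 in LPS, and 112 and 127 in Eff against 189 and 251 in LPSEff. Every stimulated sample was above every unstimulated one. The log2 fold change was 0.90 ± 0.25 in LPS vs Ctrl (limma adjusted p = 0.034), a level of 1.86 times that of Ctrl, and 0.86 ± 0.25 in LPSEff vs Eff (adjusted p = 0.045). With equal sample totals it was 0.50 and 0.42 and no longer called. With quantile normalization it was 0.97 and 0.91 and called in both contexts (limma adjusted p = 0.016 and 0.021). By edgeR it was 0.94 and 0.91 and also called (adjusted p = 0.019 and 0.023). The call thus depends on the scaling and, as given below, on single samples. With 1 sample left out, the log2 fold change lay between 0.70 and 1.10 in LPS vs Ctrl and between 0.66 and 1.07 in LPSEff vs Eff. The direction was the same in each of these fits.

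Of the hnRNP genes not called in naïve Mϕ, Hnrnpd was the only one whose groups did not overlap on the higher side. Its protein, AUF1, binds AU-rich elements in mRNAs of cytokines. It had 377 and 275 normalized counts in Ctrl against 406 and 462 in LPS, and 348 and 318 in Eff against 390.3 and 635 in LPSEff. Groups did not overlap within either context, with log2 fold changes of 0.43 ± 0.27 (limma adjusted p = 0.30) and 0.58 ± 0.27 (adjusted p = 0.18). Hnrnph3 had 0.50 ± 0.41 and 0.61 ± 0.41, with groups that overlapped. Hnrnpl and Hnrnpll, which both regulate the variable exons of CD45, had -0.44 ± 0.18 and -0.31 ± 0.17 in naïve Mϕ and -0.50 ± 0.18 and -0.55 ± 0.17 in efferocytic Mϕ, and groups did not overlap in either context. For Hnrnpll in efferocytic Mϕ the adjusted p by limma was 0.058. Hnrnpa2b1, Hnrnpk, Hnrnpdl and Hnrnpul1 lay between -0.16 and -0.05 in LPS vs Ctrl and between -0.24 and -0.08 in LPSEff vs Eff. Hnrnpa1 and Hnrnpa3, with few uniquely placed windows, had -0.66 ± 0.35 and -0.46 ± 0.35 in naïve Mϕ, and their groups did not overlap. Hnrnpc, which binds U tracts, had 0.34 ± 0.33, Hnrnpul2 had 0.31 ± 0.26 and Hnrnpa0 had 0.03 ± 0.29, all with groups that overlapped. Hnrnpm had -0.29 ± 0.18 and Hnrnpf -0.49 ± 0.28, both without overlap.

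**Figure D2:**
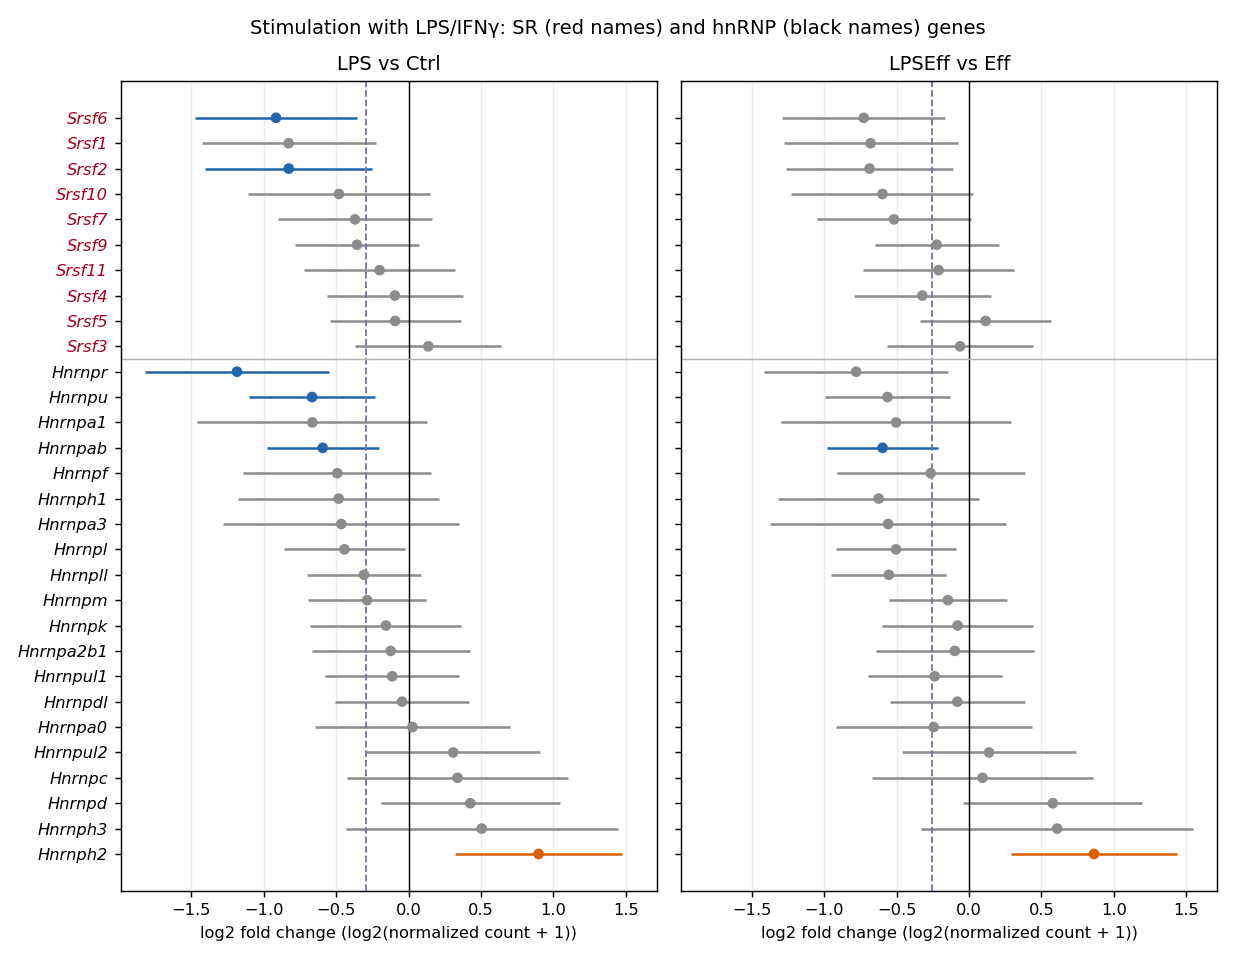
Log2 fold change of each gene for LPS vs Ctrl (left) and LPSEff vs Eff (right), on the scale log2(normalized count + 1), with its 95% confidence interval from limma; blue marks genes called lower, orange genes called higher and grey genes not called. The dashed line is the median of the 30 genes, -0.30 and -0.25, and the solid line is 0; Hnrnph2 is the only gene called higher and Hnrnpab the only gene called lower in both panels.

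As a group, described without a test, the 30 genes lay below the genes at large after stimulation. In LPS vs Ctrl, 23 were below 0 and the median log2 fold change was -0.30, with -0.36 for SR genes and -0.22 for hnRNP genes, beside -0.01 for all tested genes. In LPSEff vs Eff, 24 were below 0 and the median was -0.25, with -0.42 and -0.24 for both families, beside 0.01. With equal sample totals, the medians were -0.70 in both comparisons, that is -0.29 and -0.27 relative to the shifted medians of all genes. This scaling multiplies each sample by a constant and so moves every gene alike, which fixes that distance by construction and puts Hnrnpa0, Hnrnpc, Hnrnpul2 and Srsf3, with small values above 0 in naïve Mϕ, below 0. Equal totals gave 18 members lower (60%, beside 26.5% of all tested genes) and 0 higher (beside 8.71%) in LPS vs Ctrl, and 16 lower (53.3%, beside 26.7%) and 0 higher (beside 7.46%) in LPSEff vs Eff. With quantile normalization, 11 members were called lower in each comparison (36.7%, beside 14.1% in naïve and 12.9% in efferocytic Mϕ) and 1 higher (3.33%, beside 11.3% and 10.1%). The median in LPS vs Ctrl was -0.12 without LPS sample 1 and between -0.41 and -0.25 without any other sample.

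In LPSEff vs Eff, 1 of 30 members was called lower (3.33%, beside 8.95% of all tested genes) and 1 was called higher (3.33%, beside 10.7%). Both shares were below the background in this fit, unlike that of calls lower under both other scalings. The groups of LPS and Ctrl did not overlap on the lower side for 13 members (43.3%, beside 30.9% of all genes) and on the higher side for 2 (6.67%, beside 28.4%). For LPSEff and Eff these were 16 members (53.3%, beside 30.4%) and 2 members (6.67%, beside 29.5%). The comparisons in naïve and efferocytic Mϕ share no sample, and 11 members were lower without overlap in both, 84.6% of the naïve and 68.8% of the efferocytic list. Over all tested genes, 75.3% and 76.5% of the corresponding lists were shared. All 6 members called in naïve Mϕ were on the same side without overlap in efferocytic Mϕ, as were 97.3% of all genes called higher and 96.7% of those called lower in naïve Mϕ. Without Ctrl sample 1 or 2, no call of a member was kept in either comparison, and genes at large also had fewer calls. The log2 fold changes in LPS vs Ctrl stayed near those given, with -1.18 and -1.19 for Hnrnpr and -0.58 and -0.60 for Hnrnpab. Those in LPSEff vs Eff use no Ctrl sample and were the same, so that there the estimate of the spread and its degrees of freedom changed and the difference did not. In LPS vs Ctrl, fewer members were also called when any 1 of the other samples was left out. In LPSEff vs Eff the calls of members were lost without any 1 of the 4 samples of Eff and LPSEff. Genes at large had fewer calls in each of these fits too. Every direction given for a called member was kept under every alternative that was run.

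Ratios between nearest relatives in the same sample do not depend on size factors. Members were paired where each was the other's closest relative by protein identity, with at least 50% of residues shared, which gave 7 pairs. For 5 of these pairs the ratio of reads separated all 4 stimulated samples from all 4 unstimulated ones, whereas this held for 34.7% of all 435 pairs that can be formed from the 30 members. For none of the 7 did the ratio separate efferocytic from naïve samples. These are descriptions with no test, and a ratio shows an unequal change within a pair, not which gene moved.

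Hnrnph1 and Hnrnph2, with 93.8% of residues identical, differed the most. The ratio of Hnrnph1 to Hnrnph2 reads was 7.88 and 13.0 in Ctrl and 9.53 and 10.2 in Eff without stimulation, against 3.46 and 4.32 in LPS and 3.32 and 3.70 in LPSEff with it. Hnrnph1 itself had log2 fold changes of -0.48 ± 0.30 and -0.62 ± 0.30 and was not called, while Hnrnph2 rose. Transcripts of both share sequence with other loci, for 13.3% and 56.4% of their windows, and the part of this in the ratio was not tested. The second pair was Hnrnpab and Hnrnpd, at 68.2% identity. Their ratio was 9.83 and 13.3 in Ctrl and 13.2 and 13.1 in Eff without stimulation, against 6.23 and 5.09 in LPS and 7.20 and 4.70 in LPSEff with it. In every stimulated sample, fewer Hnrnpab reads stood against each Hnrnpd read than in any unstimulated one.

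The SR pairs shifted less. The ratio of Srsf1 to Srsf9 (72.1% identity) ranged from 3.18 to 3.77 in unstimulated and from 2.20 to 2.94 in stimulated samples. The ratio of Srsf3 to Srsf7 (62.2%) ranged from 0.603 to 0.694 and from 0.771 to 0.985, and that of Srsf4 to Srsf6 (69.0%) from 0.212 to 0.272 and from 0.278 to 0.525. Srsf9, Srsf3 and Srsf4 thus held a larger part of their pair in the stimulated samples. The ratios of Hnrnpl to Hnrnpll (53.9%) and of Hnrnpa1 to Hnrnpa3 (77.8%) overlapped, with 1.42 to 1.91 against 1.30 to 1.91, and 1.53 to 3.50 against 1.61 to 3.74. The latter pair rested on few reads, between 18 and 59 per sample for Hnrnpa3.

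**Figure D3:**
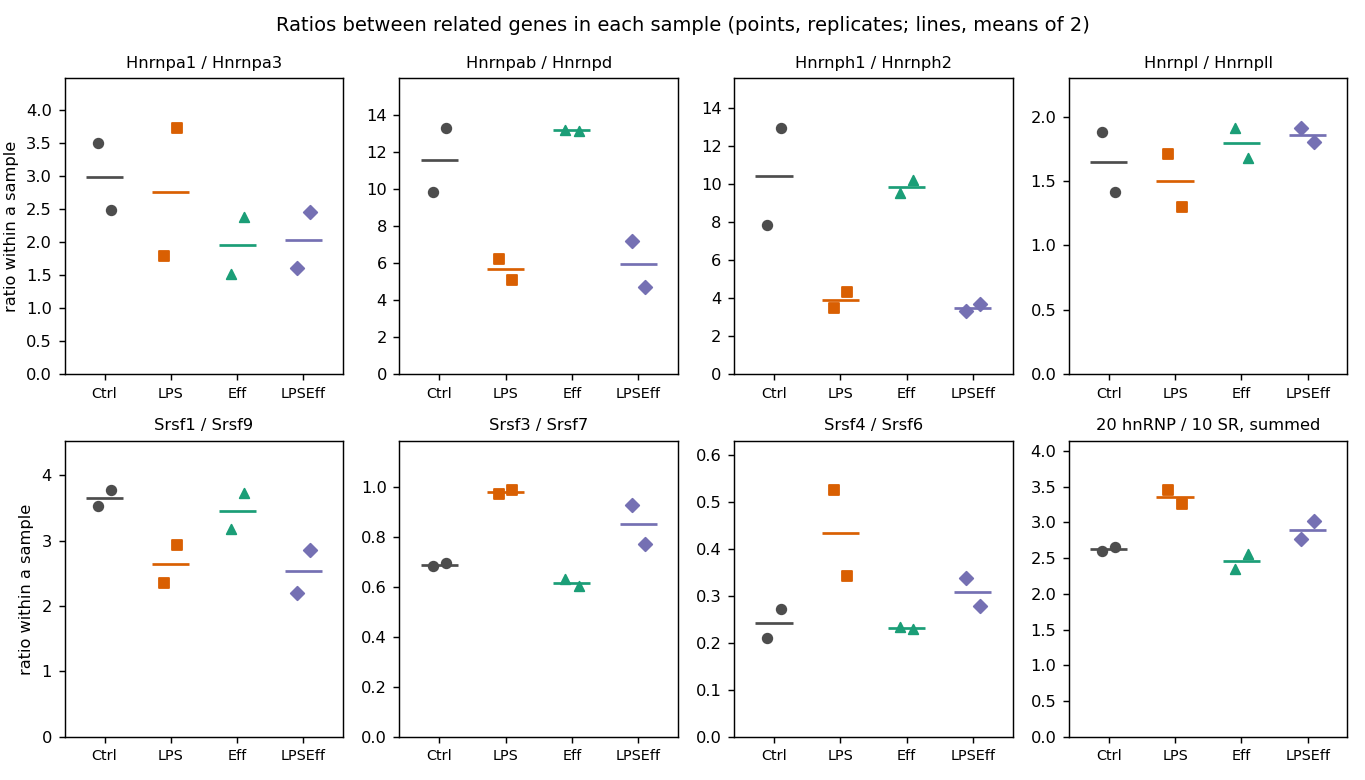
Ratio of recovered reads of each pair of nearest relatives in every sample, and, last, of the summed normalized counts of 20 hnRNP genes to those of 10 SR genes; axes start at 0, points are samples, lines are means of 2. Hnrnph1/Hnrnph2 lies between 7.88 and 13.0 without and between 3.32 and 4.32 with LPS/IFNγ.

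The families also shifted against each other. The 10 SR genes took between 0.115% and 0.143% of all reads in unstimulated samples and between 0.0543% and 0.0681% in stimulated ones. The 20 hnRNP genes took between 0.299% and 0.335%, and between 0.187% and 0.205%. The ratio of summed hnRNP to summed SR normalized counts was 2.59 and 2.65 in Ctrl and 2.34 and 2.56 in Eff without stimulation, against 3.45 and 3.25 in LPS and 2.77 and 3.02 in LPSEff with it. All stimulated samples thus had more hnRNP counts per SR count, without correction for transcript length, than all unstimulated samples. Such sums are led by the most abundant genes, Hnrnpab, Hnrnpu and Hnrnpul2 on one side and Srsf2 and Srsf1 on the other.

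The second question was what efferocytosis changed, without and with stimulation. None of the 30 genes was called. In Eff vs Ctrl, 0 members were called by limma, edgeR or DESeq2 and 0 had an unadjusted limma p under 0.05 (6.13% of all tested genes did), beside 0.215% of all tested genes called higher and 0.0368% called lower by limma. In LPSEff vs LPS, 0 members were called by the same tools and 0 had an unadjusted p under 0.05 (10.3% of all tested genes did), beside 0.73% called higher and 0.0429% called lower. For Eff vs Ctrl the members had a median log2 fold change of 0.05, and for LPSEff vs LPS one of 0.08, beside -0.013 and -0.0025 for all tested genes. With 1 sample left out, the members' median ranged from 0.03 (without Ctrl sample 1) to 0.15 (without Ctrl sample 2) in Eff vs Ctrl, and it was 0.12 without Eff sample 1. In LPSEff vs LPS it was -0.07 and 0.25 without LPS sample 1 and 2, and 0.26 and -0.10 without LPSEff sample 1 and 2, so that its sign rests on single samples. The typical 95% interval reached 0.55 to either side of a member's value. At this depth and number of samples, differences of that size and above could still miss a call. Srsf2 with 0.58 in LPSEff vs LPS did so (limma adjusted p = 0.49). Groups did not overlap on the higher side for 7 members in Eff vs Ctrl (23.3%, beside 16.3%) and on the lower side for 1, Srsf5 (3.33%, beside 17.8%). In LPSEff vs LPS these were 6 members (20%, beside 19.3%) and 2 members, Hnrnpll and Srsf4 (6.67%, beside 17%). The higher counts were near those of genes at large.

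Srsf2 had the lowest unadjusted p of the SR genes in both comparisons. Efferocytic samples lay above the naïve ones of the same stimulation, with log2 differences of 0.44 (95% CI, -0.14 to 1.01) without stimulation and 0.58 (-0.00017 to 1.15) with it, and limma adjusted p of 0.98 and 0.49. Its spread within groups was wide, at 3322 and 2230.1 normalized counts in Eff and 1999 and 1430.3 in LPSEff. In Eff vs Ctrl, Srsf7 followed with 0.31 (-0.22 to 0.84), from 531 and 644 normalized counts in Ctrl to 705 and 746 in Eff. Hnrnpa0, an intronless gene whose protein binds AU-rich RNA, had 0.56 (-0.12 to 1.24). Its values were 895 and 713 normalized counts in Ctrl and 1582 and 878 in Eff, and the higher Eff sample lay apart from the other three. Hnrnpab had 0.25 (-0.14 to 0.63) in each of the comparisons, without overlap in either.

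In LPSEff vs LPS, Srsf9 had a log2 difference of 0.34 (-0.09 to 0.77), from 357 and 447 normalized counts in LPS to 489 and 523 in LPSEff. Hnrnpf, which like the H proteins binds G-tracts, had 0.55 (-0.10 to 1.20), from 142 and 166 in LPS to 272 and 187 in LPSEff. Hnrnpu had 0.30 (-0.13 to 0.74). None of these intervals excludes 0 or a 1.5-fold difference. Eff vs Ctrl and LPSEff vs LPS share no sample, but each uses a group that also enters a comparison of stimulation.

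**Figure D4:**
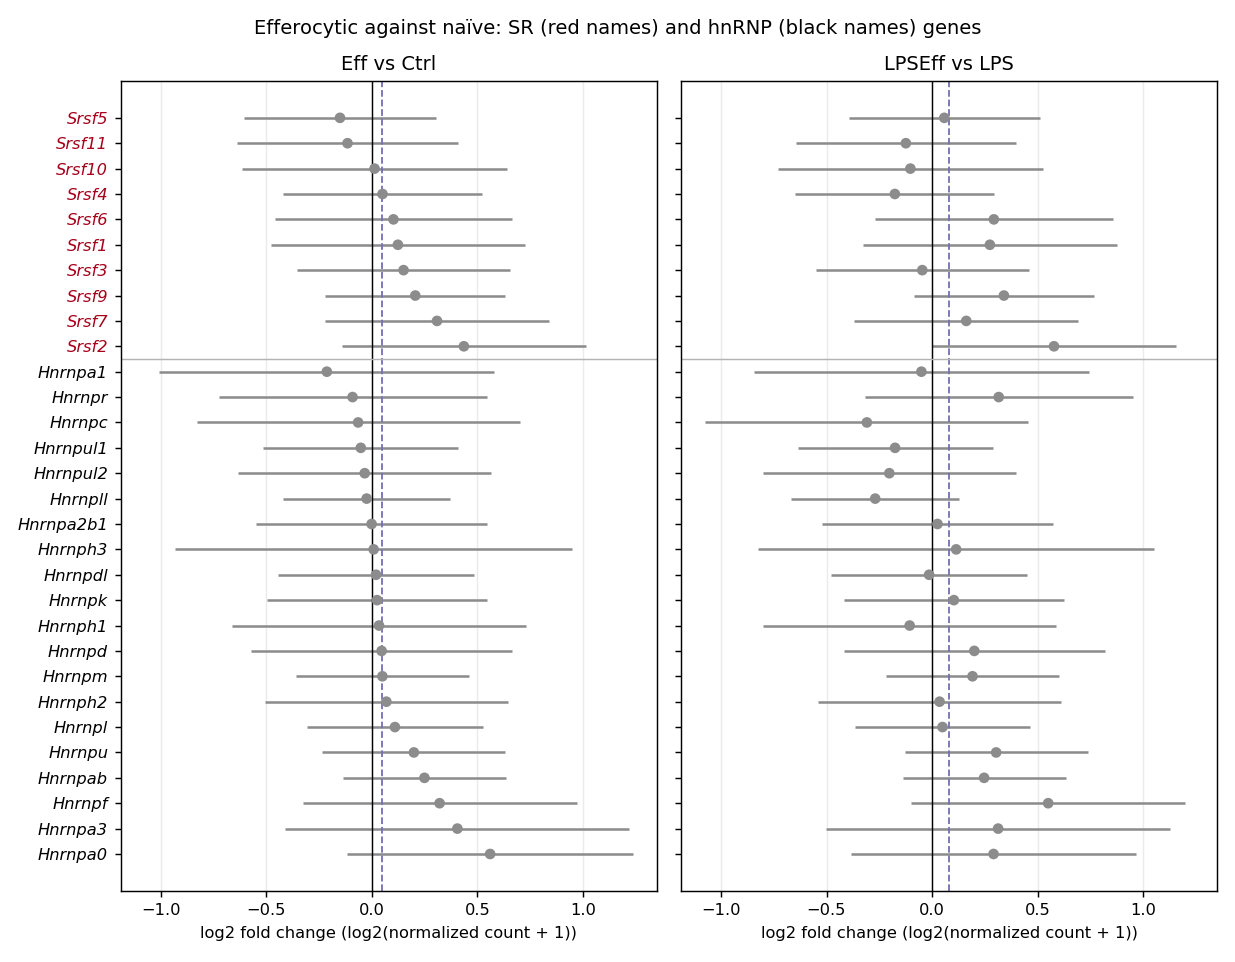
Log2 fold change of each gene for Eff vs Ctrl (left) and LPSEff vs LPS (right), with its 95% confidence interval from limma; no gene is called. The dashed line is the median of the 30 genes, 0.05 and 0.08.

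Whether the response to LPS/IFNγ itself differed between efferocytic and naïve Mϕ was tested as an interaction. It was called by limma for 0 of 30 members and for 0 of all tested genes (0%), and 0 members had an unadjusted p under 0.05, against 311 of all genes. EdgeR and DESeq2 also called 0 members. The lowest p-values belonged to Srsf4 and Srsf5 among SR genes, and to Hnrnpr and Hnrnpll among hnRNP genes. For Hnrnpr, the response in efferocytic minus that in naïve Mϕ was 0.41 (-0.49 to 1.30) on the log2 scale, i.e., a smaller fitted fall. For Hnrnpll it was -0.25 (-0.81 to 0.32), with 802 and 856 normalized counts in Ctrl against 612 and 731 in LPS, and 809 and 820.1 in Eff against 533 and 577 in LPSEff. For Srsf4 it was -0.23 (-0.89 to 0.44) and for Srsf5 0.21 (-0.43 to 0.85). Srsf4 had 229 and 308 normalized counts in Ctrl against 243 and 254 in LPS, and 276 and 274 in Eff against 214 and 226 in LPSEff. Srsf5 stayed between 278 and 353 in all 8 samples. The typical interval for this difference reached 0.78 to either side, so that a call made in one context and missed in the other does not show that the contexts differ.

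Samples 1 and 2 of a group differed in the same way for many members. Normalized counts were higher in sample 2 for 25 of 30 members in LPS and 27 of 30 in LPSEff, and for 17 of 30 in each of Ctrl and Eff, while 56.6% to 59.5% of all tested genes were higher in sample 2 of a group. In all 4 groups, 14 members were higher in sample 2, Hnrnph3, Hnrnpc and Hnrnph1 with the largest mean differences of -0.71, -0.56 and -0.50 (sample 1 minus sample 2, log2). Over all tested genes, 29.1% behaved so. Srsf2 and Hnrnpa0 were higher in sample 1 of every group, as were 14.7% of all tested genes, by 0.35 and 0.44 on average. Across the 30 members, this mean difference had a Spearman correlation of 0.20 with the GC content of the transcript. The labels name no batch that these numbers would stand for.

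The annotation bears on what gene counts can show. The 10 SR proteins held between 4.05 (Srsf9) and 23.5 (Srsf2) RS or SR dipeptides per 100 residues, and the hnRNPs between 0.295 and 2.64, in the coding sequence of the canonical transcript. Proteins of the SR genes were shorter, with a median of 255 residues against 434.5. RGG motifs, sites of arginine methylation, had a median of 0 per SR protein and 2.5 per hnRNP. All 10 SR genes and 14 of 20 hnRNP genes had an annotated NMD transcript, as did 74.4% of 12498 tested protein-coding genes. Pooled over the family, 56.9% of annotated SR transcripts and 25.4% of hnRNP transcripts were of this class, against 31.6% for tested protein-coding genes. The share was highest for Srsf9 with 82.9% and Srsf4 with 79.4%. Of the genes called after stimulation, Srsf6 had 45.5%, Srsf2 33.3%, Hnrnpu 33.3%, Hnrnpr 26.5%, Hnrnpab 6.25% and Hnrnph2 0%. Counts per gene sum productive and NMD transcripts, so that a change of a gene's count cannot be assigned to either.

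The wider splicing machinery was described through 4 lists written from general knowledge. Of 30 tested partners, kinases, importers and methylases of SR proteins, 2 rose and 3 fell in LPS vs Ctrl, and 1 rose and 3 fell in LPSEff vs Eff, with medians of -0.18 and -0.17. Prmt5, which methylates Sm proteins and other splicing factors, fell by 1.44 on the log2 scale (limma adjusted p = 0.0028), from 194 and 235 normalized counts in Ctrl to 85.4 and 71.1 in LPS. The SR protein kinase gene Srpk2 fell by 1.15 (adjusted p = 0.010), from 510 and 537 to 202 and 275. Both were also called lower in efferocytic Mϕ, with log2 fold changes of -1.37 and -0.99. Tra2a, an SR-like activator, rose by 1.46 (limma adjusted p = 0.0033), from 350.4 and 485 in Ctrl to 987 and 1312 in LPS, and it also rose in efferocytic Mϕ, by 1.18. Srrm1, a splicing coactivator, rose by 0.81 in naïve Mϕ (adjusted p = 0.023).

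Of 20 tested hnRNP proteins with other symbols, 1 rose and 2 fell in LPS vs Ctrl, and 1 rose and 0 fell in LPSEff vs Eff. Their medians were -0.015 and -0.098. Syncrip, or hnRNP Q, the relative of Hnrnpr, fell by 1.15 on the log2 scale (limma adjusted p = 0.018), from 897 and 917 normalized counts to 326 and 509, and Tardbp, the gene of TDP-43, fell by 0.64 (adjusted p = 0.045). Msi2 rose by 1.17 (adjusted p = 0.012) and, in efferocytic Mϕ, by 1.00. Of 66 tested core spliceosome genes, 2 rose and 6 fell in naïve and 1 rose and 2 fell in efferocytic Mϕ, with medians of -0.18 and -0.19. Prpf19, a ubiquitin ligase of the activated spliceosome, fell by 1.21 (adjusted p = 0.0031), and Snrpa, of the U1 snRNP, by 1.09 (adjusted p = 0.017). Prpf38a rose by 1.56 (adjusted p = 0.0065) and the helicase gene Dhx38 by 0.60 (adjusted p = 0.046). Of 25 other regulators, 2 rose (Mbnl2 by 0.78 and Rbm47 by 0.70) and 2 fell (Fubp1 by 0.81 and Tial1 by 0.72) in naïve Mϕ. In efferocytic Mϕ, 0 rose and 4 fell. The medians of this list were -0.026 and -0.058. Between efferocytic and naïve Mϕ, 0 genes of these 4 lists were called by limma, without or with stimulation. After stimulation, the shares called in either direction were below those of all tested genes given above, apart from 10% of the SR partners and 16% of the other regulators called lower in efferocytic Mϕ, beside 8.95% of all tested genes.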

How the data were processed

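Total RNA was depleted of rRNA and sequenced as single-end reads. Per the labels and the study's methods, adapters were removed with cutadapt and rRNA reads with Bowtie2, STAR placed the remainder on mm39, and HTSeq counted them per gene in its default mode. The deposited values are a signal per gene, the read count divided by a DESeq2 size factor per sample, as made by the authors. Tool versions and the annotation release are not given in the sources used here. All values (100%) were whole multiples of a step per sample (tolerance 0.05 of a read), which gave the recovered reads. In the shallowest sample 3 reads are 5.71 normalized counts.

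Symbols, positions, transcripts and coding sequences came from GENCODE M39 (GRCm39), in which 98.9% of identifiers were found. Limma 3.58.1 (R 4.3.3) was fitted with a trend to log2(normalized count + 1) of 16309 genes with a mean of at least 10, with 4 group means and 4 residual degrees of freedom. P-values were adjusted by Benjamini-Hochberg over all tested genes of a contrast, and calls were made at 0.05. Fold changes on this scale understate those of low genes. The fits were tested on simulated data. Alternatives were edgeR 4.0.16 and DESeq2 1.42.0 on recovered reads, pseudocounts of 0.5 and 5, minimum means above 0 and of 50, equal totals, quantile normalization, a fit of 2 groups only, a replicate block and each sample left out. Count tests with the block and ratios within a sample were chosen after seeing the data. Values in all samples are given for called members (up to 4 rises and 4 falls per family), the highest of each family and, in comparisons without calls, those of lowest p; of each companion list the 2 largest called rises and falls are named. The members and the lists were chosen with earlier results of these data known.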

Additional observations from a re-analysis of the deposited data

How the results depend on the processing

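In LPS vs Ctrl, 6 members were called (1 higher, 5 lower). With equal totals 18 were called, with quantile normalization 12 (1 higher, 11 lower), and 2 both with all genes above 0 and in fits of the 2 groups alone. The former tests more genes, and the latter holds fewer samples. In LPSEff vs Eff, 2 were called, against 16 with equal totals, 12 with quantile normalization and 0 with all genes above 0 or in fits of 2 groups. With 1 sample left out, assuming that the lone sample of its group varies like the others, between 0 and 4 were called in LPS vs Ctrl and between 0 and 3 in LPSEff vs Eff. The other alternatives without a block stayed within 1.5 times of these counts, though not always with the same genes. In LPS vs Ctrl, edgeR lost Srsf2 and Hnrnpab and gained Srsf1, and DESeq2 lost none and gained Srsf1. In LPSEff vs Eff, DESeq2 also called Srsf6. No direction of a called member was reversed. The causes of these differences were not tested beyond the construction of the fits.

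With the replicate number as a block, 12 members were called in LPSEff vs Eff (2 higher, 10 lower), 13 by edgeR and 11 by DESeq2 with the block. The 10 called lower are 33.3% of members, beside 18% of all tested genes by limma, 17.6% by edgeR and 14.5% by DESeq2 with the block, and include Srsf2, Srsf6, Hnrnpr and Hnrnpu, so that the share lies above the background and not below it as without the block. With it, 1 member, Srsf2, was called higher in LPSEff vs LPS by limma, edgeR and DESeq2 with the block. This is 3.33% of members, beside 4.32%, 4.38% and 3.72% of all tested genes called higher by these tools. In LPS vs Ctrl the block gave 9 calls, 8 of them lower (26.7%, beside 20.7%). Same-numbered samples deviated together over genes, with correlations of 0.404 to 0.595 for the 6 pairs of groups, but the samples share only a number, since no label says that it marks a preparation. With 2 samples per group, an exact permutation cannot reach the threshold, and members with few reads, such as Hnrnpa3 with 18 to 59, are least certain.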
